A study of Mus musculus with 8 samples.

Results

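The replication-dependent histone genes make the bulk of the histone proteins that package new DNA. They were followed here in a genome-wide map of H3K9ac, an acetyl group on a lysine of the histone H3 tail found at the promoters of transcribed genes. All protein-coding genes whose symbol begins with *Hist1h*, *Hist2h*, *Hist3h* or *Hist4h* in the GENCODE annotation of mm10 were taken as members. This gave 67 of 21938 protein-coding genes, of which 54 lie on chromosome 13 (*Hist1*), 10 on chromosome 3 (*Hist2*), 2 on chromosome 11 (*Hist3*) and 1 on chromosome 6 (*Hist4h4*). By protein, 6 encode linker histone H1, 18 H2A, 18 H2B, 12 H3 and 13 H4. H3K9ac had been profiled by ChIP-seq in frozen whole BM cells of C57BL/6 mice, all carrying the *NUP98-HOXD13* transgene, a model of myelodysplastic syndrome and leukaemia. The mice were *GFI1-36S* (the common form of the transcription factor GFI1), *GFI1-36N* (serine replaced by asparagine) or *GFI1-KD* (reduced expression of GFI1), and had received vehicle or curcumin, a plant compound described as an inhibitor of histone acetyltransferases, at 20 mg/kg weekly. There was 1 library for each of the 6 groups, so differences between groups could not be set against a spread between replicates, and no test was run. The number of mice behind a library and their age are not given in the sources used here.

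Between 20354 and 49213 peaks were listed per library. The *GFI1-36S* curcumin library stood apart. It had the fewest peaks, a promoter peak at 1 of 10 neutrophil, 1 of 8 erythroid and 1 of 8 progenitor markers, but at 10 of 10 T cell markers, and the only peaks on chromosome Y (3 peaks). The other 5 libraries had peaks at 7 or 8 of the progenitor markers and at 5 to 7 of the T cell markers. Of these 5, *GFI1-KD* curcumin had peaks at the fewest neutrophil markers (6, against 10 in each of the others) and erythroid markers (3, against 5 to 8). The names of the *GFI1-36S* lists give the opposite treatments to the sample labels, and the labels were followed. For *GFI1-36N*, the list names differ in allele state between vehicle and curcumin, so that zygosity and treatment cannot be told apart. Differences in the mix of BM cells between libraries cannot be told apart from differences within a cell type either.

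Replication-dependent histone genes are transcribed in S phase, when DNA is copied. They have no introns in most cases, and their mRNAs end in a stem-loop, bound by the stem-loop binding protein SLBP, in place of a poly(A) tail. Their transcription depends on NPAT, a coactivator that gathers at the gene clusters in a nuclear body. In the *Hist1* cluster, H2A and H2B genes often stand head to head and share the DNA between them. A few members, the linker histone gene *Hist1h1t* and the pair *Hist1h2aa* and *Hist1h2ba*, are known for their expression in the testis.

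The signature of the family can be read in its sequence. Within 120 bases after the stop codon, 65 of 67 members had a perfect inverted repeat with a stem of 6 bases and a loop of 4 bases, against 5.68% of the 21752 protein-coding genes with an annotated stop codon. It was not found in *Hist2h2be* and *Hist1h2an*. The commonest form stood in 41 members of the H1, H2A, H2B and H3 classes, the second in 9 members, and the third in 8 members, all H4 genes. They are shown with the stem in capitals, because they are the part of the mRNA that SLBP binds:
Form of 41 members, among them *Hist1h1c* (chr13:23739512-23739527, plus strand): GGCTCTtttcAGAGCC
Form of 9 members, among them *Hist1h1t* and *Hist1h3e*: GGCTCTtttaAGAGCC
Form of 8 H4 members, among them *Hist1h4h* (chr13:23531458-23531473, plus strand): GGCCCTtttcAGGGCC

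Promoter sequence was available from RefSeq (GRCm38.p6, the same assembly as mm10) for 62 members. In the 250 bases before the start, on either strand, the CCAAT box (CCAAT) was found in 51 members (82.3%, against 34.5% of all 27025 RefSeq promoters) and the TATA box (TATAAA) in 29 (46.8% against 13%). The octamer (ATTTGCAT), known in H2B promoters, stood in 13 members (21% against 1.61%), of which 7 were H2A and 6 H2B genes. The GC box (GGGCGG) was as frequent as elsewhere (32.3% against 32.9%). The classes differed, with a CCAAT box in 18 of 18 H2A and 16 of 16 H2B but 3 of 12 H4 promoters. A site between head-to-head genes can count for both of them, as the octamer between *Hist1h2ae* and *Hist1h2bg* does. The H2A and H2B counts are therefore not independent. The 150 bases before the RefSeq start are shown for members on which the results turn, with these 4 motifs in capitals. The letters are given as a description of the promoters, not as binding sites:
*Hist1h2ac* (H2A, peak in all 6 libraries, chr13:23683960-23684109, minus strand): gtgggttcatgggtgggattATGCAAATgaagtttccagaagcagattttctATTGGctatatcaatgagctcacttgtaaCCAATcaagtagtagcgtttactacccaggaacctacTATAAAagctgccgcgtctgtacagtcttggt
*Hist1h2af* (H2A, highest-ranked H2A, chr13:23533725-23533874, plus strand): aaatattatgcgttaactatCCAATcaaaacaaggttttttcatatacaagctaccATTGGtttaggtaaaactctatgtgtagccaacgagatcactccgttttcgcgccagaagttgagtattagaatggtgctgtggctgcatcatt
*Hist1h4h* (H4, highest-ranked H4, chr13:23530894-23531043, plus strand): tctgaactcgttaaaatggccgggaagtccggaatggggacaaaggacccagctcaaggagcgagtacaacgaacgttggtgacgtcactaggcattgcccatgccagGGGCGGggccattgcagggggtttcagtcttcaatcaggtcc
*Hist1h4d* (H4, largest fall with curcumin in *GFI1-36S*, chr13:23581418-23581567, plus strand): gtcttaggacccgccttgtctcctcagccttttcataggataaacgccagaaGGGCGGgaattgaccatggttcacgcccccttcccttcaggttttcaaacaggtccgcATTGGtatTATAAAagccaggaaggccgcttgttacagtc
*Hist1h1c* (H1, highest-ranked H1, chr13:23738657-23738806, plus strand): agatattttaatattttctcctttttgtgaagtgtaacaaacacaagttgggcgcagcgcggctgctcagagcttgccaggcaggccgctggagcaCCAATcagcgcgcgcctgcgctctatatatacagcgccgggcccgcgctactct
*Hist1h1d* (H1, start placed differently in the annotations, chr13:23554882-23555031, plus strand): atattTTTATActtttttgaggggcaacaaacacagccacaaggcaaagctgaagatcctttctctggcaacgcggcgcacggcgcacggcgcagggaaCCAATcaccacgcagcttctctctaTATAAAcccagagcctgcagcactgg
*Hist1h1t* (testis H1, weakest peaks of the H1 genes, chr13:23695661-23695810, plus strand): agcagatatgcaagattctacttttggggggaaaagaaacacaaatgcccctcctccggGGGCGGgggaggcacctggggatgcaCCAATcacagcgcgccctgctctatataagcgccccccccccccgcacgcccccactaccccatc
*Hist1h2ba* (testis H2B, no peak, chr13:23934157-23934306, minus strand): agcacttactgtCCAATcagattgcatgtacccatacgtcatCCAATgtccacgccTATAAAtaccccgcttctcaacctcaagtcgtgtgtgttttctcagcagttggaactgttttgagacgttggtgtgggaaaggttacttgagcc
*Hist1h2bq* (H2B, peak numbers absent, identical to the promoter of *Hist1h2br*, chr13:21810200-21810349, minus strand): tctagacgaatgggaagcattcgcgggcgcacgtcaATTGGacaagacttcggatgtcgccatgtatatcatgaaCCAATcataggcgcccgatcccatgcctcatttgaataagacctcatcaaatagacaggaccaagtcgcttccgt

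For each member the strongest peak within 1 kb of a TSS was taken, by its fold enrichment over the local background as the authors' peak caller wrote it, with an overlap of at least 1 bp. Fold enrichment is not comparable between libraries, so each peak was ranked among the promoter peaks of all protein-coding genes in its own library, from 0 (no peak) to 100 (the strongest). In *GFI1-36S*, 40 of 67 members had a peak with vehicle (59.7%, Wilson 95% interval 47.7 to 70.6, all protein-coding genes 53.1%) and 38 with curcumin (56.7%, 44.8 to 67.9, background 45.3%). In *GFI1-36N*, a peak stood at 41 members in either library (61.2%, 49.2 to 72.0, background 53.0% and 55.3%). In *GFI1-KD*, the counts were 41 with vehicle (background 54.9%) and 40 with curcumin (background 51.8%). The intervals cover counting error alone, and take the members as independent although neighbouring members share peaks. They do not measure a spread between mice. Taken at face value, these shares were little above those of all genes. A peak in all 6 libraries stood at 38 members (56.7%, against 43.4% of all protein-coding genes), and a peak in some at 3. The other 26 of the 67 had a peak in none, as did 41.2% of all protein-coding genes.

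The 26 members without a peak were not a uniform group. The peak caller numbers its peaks in order along the genome, and in each list used here between 516 and 946 numbers were absent (1.84% to 2.47% of those given out). A number absent between a pair of neighbouring listed peaks shows that a peak had been called in that stretch and is not in the list. For 24 of the 26 members, numbers were absent between the listed peaks on either side, in every one of the 6 libraries. This held for 35.8% of the members and for 2.62% of all protein-coding genes (575 genes). The study's methods state that peaks were filtered with the ENCODE black list. Whether that filter accounts for the absent numbers was not tested. The acetylation at the annotated starts of these 24 genes is therefore undetermined, and the genes cannot be called silent.

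**Figure D1:**
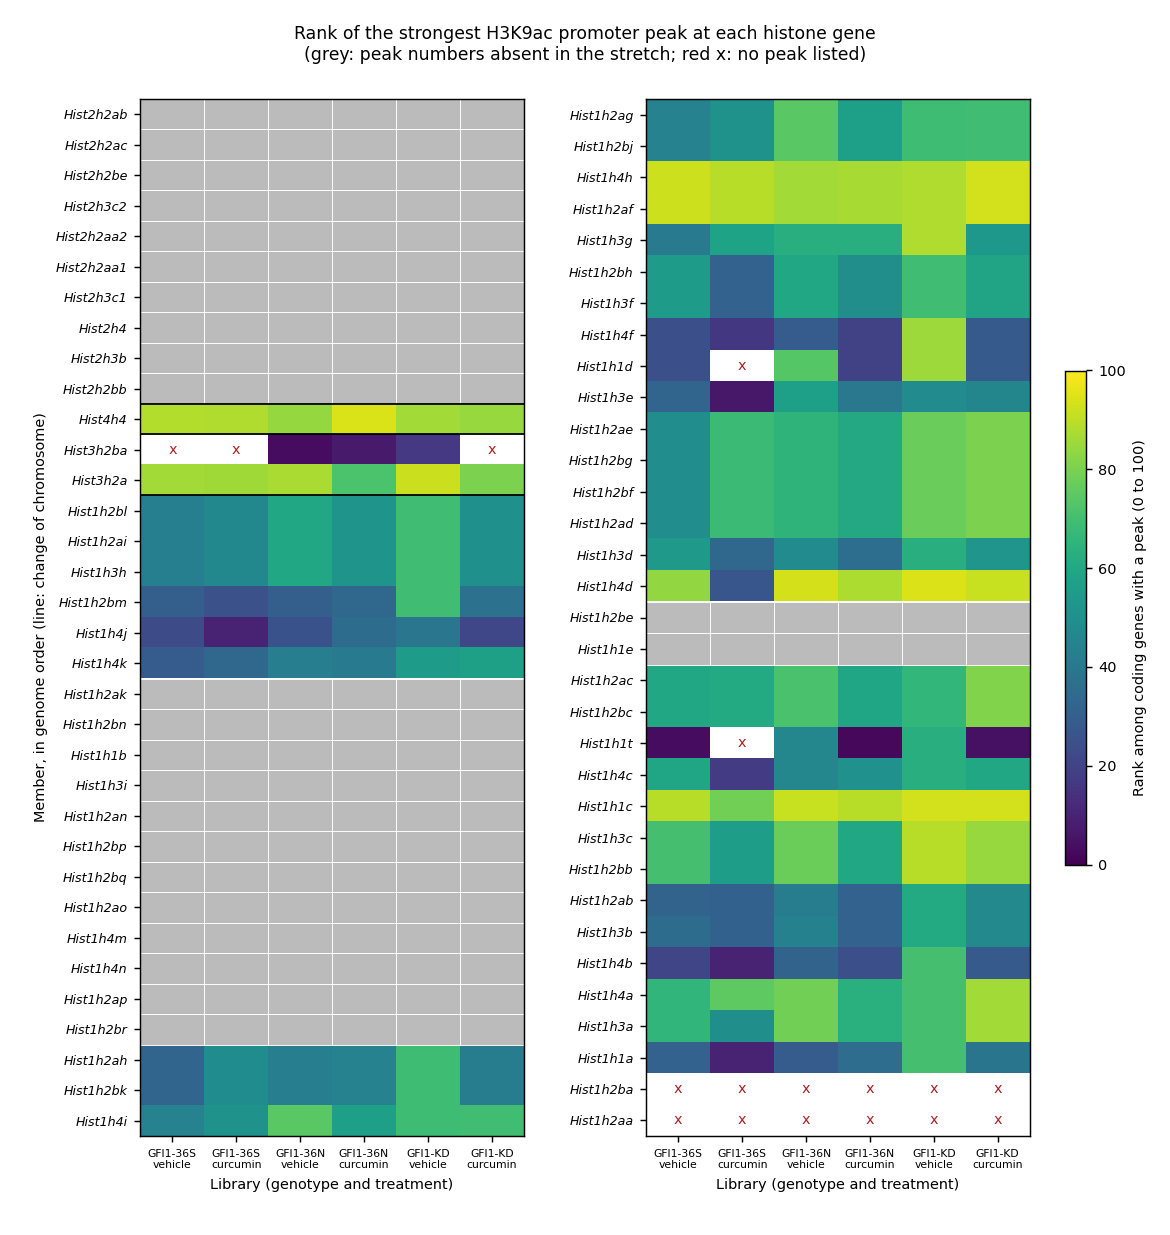
Rank of the strongest H3K9ac promoter peak (colour, 0 to 100) of each of the 67 members (rows, in genome order, a black line where the chromosome changes) in each of the 6 libraries (columns). Grey marks the 24 members in stretches with absent peak numbers, which form 3 blocks, and a red x marks a member without a listed peak where no number was absent.

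The 24 members lay in 3 stretches. The first was the *Hist2* cluster on chromosome 3 (chr3:96219865-96270132), with all 10 *Hist2* genes. Between 15 and 21 peak numbers were absent there, in intervals of 97.2 to 219 kb without a listed peak that also held the TSS of 1 to 3 other protein-coding genes (*Bola1*, *Fcgr1* and *Sv2a*). The second was a stretch of chromosome 13 from *Hist1h2ak* to *Hist1h2br* (chr13:21753435-21837530) with 12 members, among them the linker histone gene *Hist1h1b* and the H4 genes *Hist1h4m* and *Hist1h4n*. Between 9 and 11 numbers were absent there and no other protein-coding gene had a TSS in the interval. The third held *Hist1h2be* and *Hist1h1e*, with 1 or 2 numbers absent in an interval of 71.4 to 89.4 kb. With so few numbers over such a length, the absent peaks need not have been at these genes. The annotated start of *Hist1h2be* (near chr13:23621094) lies far from its stem-loop (chr13:23585531-23585546). In every library but *GFI1-36S* curcumin, that stem-loop lay under the listed peak assigned to *Hist1h4d*.

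Many histone genes are near-copies of each other, so the share of sequence that recurs elsewhere was measured. Of the 32-base words within 1 kb of the TSS, the share found more than once in the 21 chromosomes ranged from 1.07% to 100% over the 24 members with absent numbers (median 33.8%), and from 0.0508% to 45.3% over the 38 members with a peak in all 6 libraries (median 23.5%). In 10 of the 24, but in 0 of the 38, over 50% of the words recurred. *Hist1h2bq*, *Hist1h2ao*, *Hist1h2ap* and *Hist1h2br* were repeated throughout (100%), and *Hist1h4m* and *Hist1h4n* nearly so (95.8% and 95.7%). *Hist1h2be* (1.07%), *Hist1h1b* (1.27%), *Hist2h4* (1.88%) and *Hist1h1e* (9.70%) were almost free of repeats and still lay in stretches with absent numbers. For *Hist1h2be* the value describes the sequence at its annotated start, far from its stem-loop. The part of repeats in the absence of numbers was not tested.

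**Figure D2:**
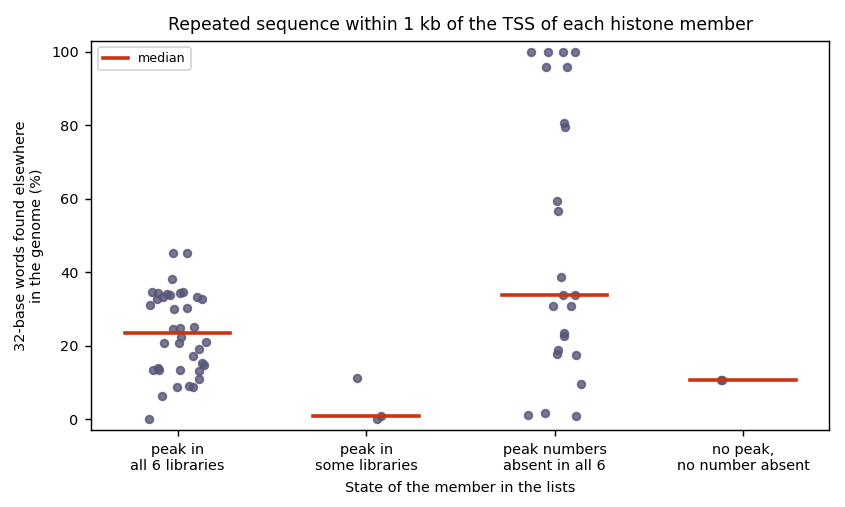
Share of the 32-base words within 1 kb of the TSS that occur more than once in the genome (y axis, %), for each member (points) by its state in the lists (x axis), with the median as a red line. Values above 50% are found in 10 of the 24 members with absent numbers and in none of the others, while 4 of the 24 lie below 10%.

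Of the 43 members outside these stretches, 88.4% to 95.3% had a promoter peak in a library. The share was 47.4% to 58.1% of the protein-coding genes left by the same rule. That rule sets aside only genes without a listed peak, 35.8% of the members but 3.98% to 4.85% of all protein-coding genes per library. Part of the gap between these shares is therefore built in by the rule. The only members without a peak in any library were *Hist1h2ba* and *Hist1h2aa*, the head-to-head testis pair at the end of the cluster (chr13:23933773-23934851), where no number was absent. Their promoters hold CCAAT and TATA boxes like those of the marked members, as the sequence of *Hist1h2ba* shows. Without the *GFI1-36S* curcumin library, 40 members had a peak in every library.

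For the 3 members with a peak in some libraries, the missing peaks were of different kinds. *Hist3h2ba*, an H2B gene on chromosome 11, had weak peaks of 3.60-fold (rank 3.2) in *GFI1-36N* vehicle, 4.50-fold (rank 7.4) in *GFI1-36N* curcumin and 8.36-fold (rank 16.5) in *GFI1-KD* vehicle, and none in the other 3 libraries. Its neighbour *Hist3h2a* ranked between 71.8 and 91.9 in all 6. *Hist1h1d*, a linker histone gene, had no peak in *GFI1-36S* curcumin at its GENCODE TSS. The RefSeq start of this gene lies 1770 bp further downstream, and it was the only one of 62 members for which the starts differed by more than 500 bp (median 11 bp). At the RefSeq start *Hist1h1d* had a peak in every library, with ranks (vehicle, then curcumin) of 81.4 and 83.8 for *GFI1-36S*, 73.8 and 78.0 for *GFI1-36N*, then 85.5 and 82.4 for *GFI1-KD*. The state of this gene thus turned on the annotation.

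*Hist1h1t*, the testis linker histone gene, was missing in *GFI1-36S* curcumin alone. Its own peaks were narrow and weak, with 3.71-fold enrichment and a width of 262 bp in *GFI1-36S* vehicle, 3.29-fold and 232 bp in *GFI1-36N* curcumin, and 4.32-fold and 418 bp in *GFI1-KD* curcumin. In *GFI1-36N* vehicle and *GFI1-KD* vehicle its ranks of 46.3 and 62.6 came from a peak of 1713 and 3278 bp that it shared with the H4 gene *Hist1h4c*, with the summit 2194 and 2185 bp from the TSS of *Hist1h1t*. In those libraries the summit was 446 and 455 bp from the TSS of *Hist1h4c*. The ranks of *Hist1h1t* are therefore those of its neighbour where the peaks are wide.

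Members of the H1, H2A and H4 classes reached a rank of 78.6 or higher in every library. The highest rank of a library was between 60.5 and 89.2 for H2B and between 57.9 and 89.2 for H3. In the H1 class, *Hist1h1c* ranked 89.2 (vehicle) and 78.6 (curcumin) for *GFI1-36S*, 91.6 and 89.1 for *GFI1-36N*, then 93.2 and 93.0 for *GFI1-KD*. Its summit held 98 to 279 recovered fragments. *Hist1h4h* and *Hist1h2af* shared a peak of 3792 to 8505 bp in all 6 libraries and were the highest-ranked H4 and H2A genes, between 86.2 and 93.0, with the smallest range of ranks (6.80) of the 38 members marked throughout. *Hist4h4*, the H4 gene alone on chromosome 6, ranked between 84.1 and 94.5. The highest H2B and H3 genes by mean rank, *Hist1h2bb* and *Hist1h3c*, also shared their peak, with ranks of 70.4, 55.7, 77.5, 59.7, 89.2 and 84.6 in the order of libraries used for *Hist1h1c*.

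The lowest members with a peak were *Hist1h2ab* in the H2A class (ranks 30.9 to 61.0), *Hist3h2ba* in the H2B class, *Hist1h3e* in the H3 class (6.6 to 56.5), *Hist1h4j* in the H4 class (9.8 to 39.3) and *Hist1h1t* in the H1 class. Of the 38 members with a peak in all 6 libraries, *Hist1h4f* varied most, from 16.4 in *GFI1-36S* curcumin to 85.5 in *GFI1-KD* vehicle. The latter rank came from a peak of 7566 bp shared with *Hist1h1d*, with its summit more than 1 kb from the TSS of *Hist1h4f*. The range of *Hist1h4f* thus depends on the assignment of that peak. Ranks of neighbours were not independent of each other. The 38 to 41 marked members stood under 20 to 27 distinct peaks, and 13 pairs of members stand head to head within 1 kb. All 7 of these pairs that had peaks shared their strongest peak in all 6 libraries, and the other 6 pairs had no listed peak. Of the 13 pairs, 12 were an H2A and an H2B gene, with 176 to 660 bp (median 268) between the starts of all 13.

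The peaks at the members were widest in *GFI1-KD* vehicle. The median width over marked members was 2216 bp (vehicle) and 1086 bp (curcumin) in *GFI1-36S*, 2363 and 2240 bp in *GFI1-36N*, and 5333 and 2241 bp in *GFI1-KD*. Over all protein-coding genes with a promoter peak it was 1784 and 1059, 1715 and 1760, and 1945 and 1534 bp in the same order. These medians count a shared peak once for each gene. With each distinct peak at the members counted once, the median was 1804 and 1058 bp in *GFI1-36S*, close to that of all genes, 2001 and 2185 bp in *GFI1-36N*, then 4890 and 2241 bp in *GFI1-KD*. In *GFI1-KD* vehicle, 12 of 20 distinct peaks were at least 4 kb wide, compared with 0 to 3 in each of the other libraries. A peak of 10698 bp covered *Hist1h4b*, *Hist1h4a*, *Hist1h3a* and *Hist1h1a*, and a peak of 9128 bp was the strongest within 1 kb of the TSS for 5 members, covering *Hist1h4i*, *Hist1h2ag* and *Hist1h2bj* but neither *Hist1h2ah* nor the TSS of *Hist1h2bk*. From *Hist1h2ah* to *Hist1h2bj*, with 1 kb on either side, all listed peaks together covered 98.9% of the sequence in *GFI1-KD* vehicle and 39.9% to 80.8% in the other 5 libraries. The number of fragments at the members' summits was also highest there, with a median of 202 against 66 to 135 in the other libraries. The part of depth in the width of the peaks was not tested.

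**Figure D3:**
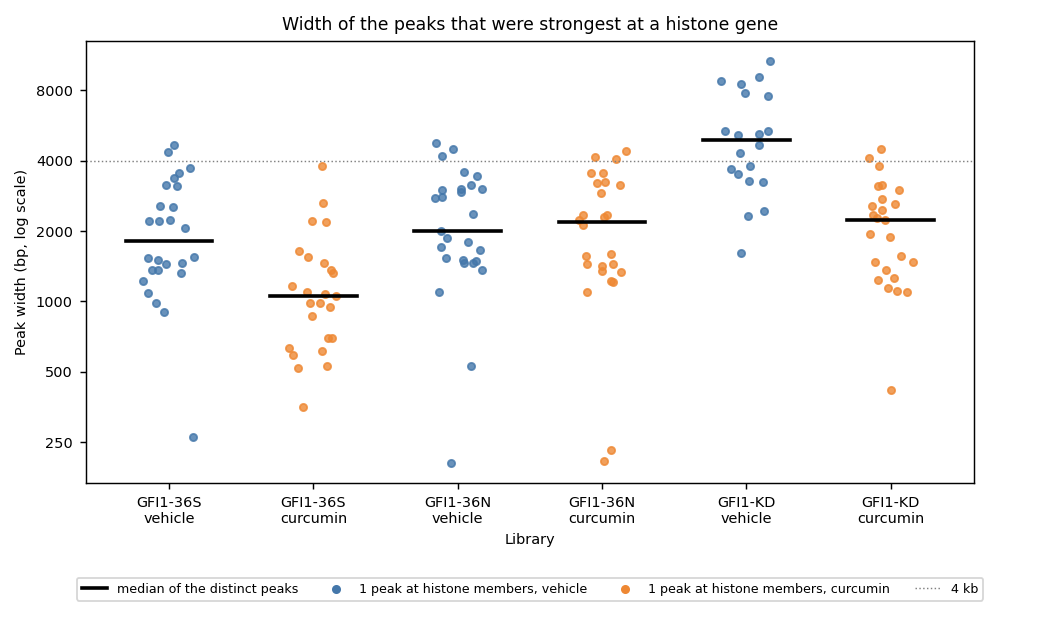
Width of each distinct peak that was the strongest at 1 or more members (points, y axis in bp on a log scale) in each library (x axis), with the median as a black bar and 4 kb as a dotted line. In *GFI1-KD* vehicle, 12 of 20 peaks lie at or above 4 kb, and in *GFI1-36S* curcumin none does.

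The position of the peaks differed from that at other genes. Summits lay downstream of the TSS in 46.3% to 56.1% of the marked members and in 73.1% to 75.1% of all genes with a promoter peak. They lay within 1 kb of the TSS in 56.1% to 86.8% of members and in 97.1% to 98.5% of all such genes. A summit shared by a head-to-head pair and beyond either start is downstream of 1 TSS and upstream of the other. How far the 7 marked pairs with a shared peak set these shares was not tested. Just inside the genes, where peaks are most frequent elsewhere, the coverage of members dipped. At 250 bp downstream, a peak covered 50% (vehicle) and 36.8% (curcumin) of marked members for *GFI1-36S*, 58.5% and 51.2% for *GFI1-36N*, then 92.7% and 57.5% for *GFI1-KD*, compared with 84.9% to 87.3% of all marked genes. At 500 bp it was 94.7% to 100% in all 6 libraries. The dip was shallowest in *GFI1-KD* vehicle, where coverage went from 97.6% at 150 bp to 92.7% at 250 bp and 100% at 400 bp. At the TSS itself, 34.2% of members were covered in *GFI1-36S* curcumin and 82.9% to 97.6% in the other libraries. All marked genes were also covered least in that library, at 58.65% against 78.1% to 83.6% in the others.

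The dip fell where the sequence of the members is repeated. At 250 bp downstream, in the coding sequence, a 32-base word that occurs elsewhere was found in 34 of the 41 members with a peak in any library (82.9%). At the TSS and at 500 bp downstream it was found in 2.44% and 4.88%. Within 1 kb of the TSS, 16.4% to 21.3% of the bases inside peaks and 30.3% to 47.1% of those outside them lay in repeated words. Repeated words were thus more frequent outside than inside the peaks in each of the 6 libraries. The low coverage at the TSS itself in *GFI1-36S* curcumin fell where few words were repeated. The part of the repeats in the gaps was not tested.

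**Figure D4:**
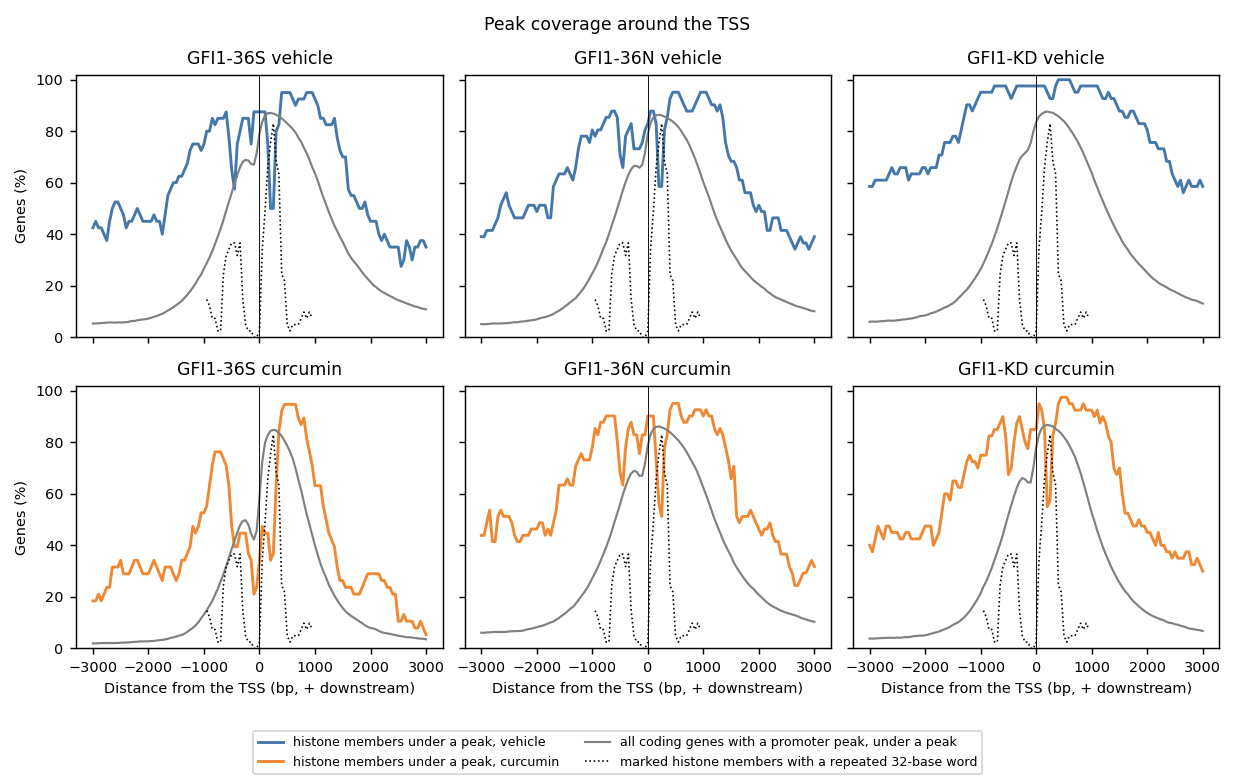
Percentage of genes covered by a listed peak (y axis) by distance from the TSS in bp (x axis, positive downstream) in each library, for histone members with a promoter peak (blue with vehicle, orange with curcumin) and all protein-coding genes with a promoter peak (grey), and percentage of marked members with a repeated 32-base word (dotted). Coverage of members dips near 250 bp, where 82.9% of members have a repeated word, to 92.7% in *GFI1-KD* vehicle and to 36.8% to 58.5% in the other 5 libraries.

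The median rank of the marked members with vehicle was 46.7 for *GFI1-36S*, 62.6 for *GFI1-36N* and 69.5 for *GFI1-KD*, and with curcumin 49.4, 51.8 and 59.0. Among all genes with a promoter peak the median is 50 by construction. With vehicle, the class medians were lowest in *GFI1-36S* for all 5 classes, between 28.1 for H1 and 51.6 for H4. In *GFI1-KD* vehicle they lay between 69.5 and 78.0. The H1 median of *GFI1-36S* vehicle is over 4 members and depends on the annotation. It includes *Hist1h1d* at 24.5, which ranked 81.4 in that library at its RefSeq start. The libraries of different genotypes also differ in depth and in the width of their peaks, and how far these differences bear on the ranks was not tested.

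With curcumin, more histone members went down than up in rank in *GFI1-36N*. All 41 marked members had a peak in both libraries, so that 0 were lost (1.84% of all genes) and 0 gained (5.93%). The rank fell by 10 points or more in 18 members (43.9%), against 11.0% of the protein-coding genes with a peak in the pair, and rose by as much in 2 members (4.88%), against 19.5%. The median change was −7.82 points, while that of all such genes was 1.98. On the scale of fold enrichment, centred on all genes, the median log2 ratio of curcumin to vehicle was −0.19, and 33 of 41 members were below 0. The 18 members stood under 12 peaks with vehicle. When the summit itself had to lie within 1 kb, the median change was −2.55, with 14 members lower and 5 higher by 10 points or more.

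The largest falls in *GFI1-36N* were those of *Hist1h1d* (from rank 73.8 to 19.9), *Hist1h1t* (46.3 to 2.3) and the H2A gene *Hist1h2ag* with its neighbours *Hist1h2bj* and *Hist1h4i* under the same peak (74.4 to 56.4). The first 2 depended on where the peak was assigned. At its RefSeq start *Hist1h1d* went from 73.8 to 78.0, and *Hist1h1t* lost the peak it had shared with *Hist1h4c*, which itself went from 46.3 to 50.6. The largest rises were those of *Hist4h4* (84.1 to 94.5), *Hist1h4j* (25.2 to 35.2) and *Hist1h1a* (29.0 to 35.8). The peak of *Hist4h4* was enriched 26.3-fold with vehicle and 36.3-fold with curcumin, values that are not comparable between libraries. Centred on all genes, its log2 ratio was 0.19.

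In *GFI1-KD*, 20 of 41 members fell by 10 points or more (48.8%, against 20.7% of all genes) and 4 rose (9.76%, against 9.38%). The median change was −4.57 points, and −2.37 for all genes. *Hist3h2ba* was the only member with a peak with vehicle alone (6.79% of all genes), and none had a peak with curcumin alone (1.25%). Of the 20 members that fell, 16 stood under a vehicle peak of at least 4 kb, as did 4 of the 4 that rose and 31 of all 41. Between the same libraries, the markers with a peak went from 10 to 6 of 10 for neutrophils and from 8 to 3 of 8 for erythroid cells, and the part of the cell mix in the changes was not tested. The median depended on the assignment of peaks, at −0.31 with a window of 3 kb, −10.9 with 500 bp and −10.9 with 1 member per distinct peak. When the summit had to lie within 1 kb, 15 members fell and 14 rose by 10 points or more, with a median change of −1.96. The median log2 ratio centred on all genes was −0.08, with 25 of 40 members below 0.

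The largest falls in *GFI1-KD* were those of *Hist1h1t* (62.6 to 4.6) and of *Hist1h4f* and *Hist1h1d* under a shared peak (85.5 to 28.4). With a window of 3 kb these falls shrank to −3.03, −3.21 and −3.21. The vehicle peak at *Hist1h4f* was 7566 bp wide, with its summit at −3995 bp from the TSS (upstream), and with curcumin the peak was 1942 bp wide with its summit 429 bp downstream. At its RefSeq start, *Hist1h1d* went from 85.5 to 82.4. The largest rises were those of *Hist1h3a* and *Hist1h4a* (70.4 to 86.3) and of the head-to-head pair *Hist1h2ac* and *Hist1h2bc* (66.3 to 81.0). They too stood under vehicle peaks of 4 kb or more, which narrowed from 10698 to 2285 bp at *Hist1h3a*.

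In *GFI1-36S*, 14 of 40 members fell by 10 points or more (35.0%, against 41.6% of all genes) and 7 rose (17.5%, against 14.7%). Their median change was −2.12 points, against −6.73 for all genes. On the centred log2 scale the median had the other sign, 0.09, with 24 of 38 members above 0. *Hist1h1d* and *Hist1h1t* had a peak with vehicle alone (16.5% of all genes) and no member with curcumin alone (2.03%). The largest falls were those of the H4 genes *Hist1h4d* (83.8 to 26.9) and *Hist1h4c* (58.7 to 17.3) and the H3 gene *Hist1h3e* (32.6 to 6.6). The fall of *Hist1h4d* was that of a peak whose summit lay 3692 bp downstream with vehicle, while with curcumin the strongest peak had its summit 407 bp from the TSS. That vehicle peak also covered the stem-loop of *Hist1h2be*, so its rank cannot be credited to *Hist1h4d* alone. The direction of the change turned when the summit had to lie within 1 kb. The largest rises were those of *Hist1h2ae*, *Hist1h2bg*, *Hist1h2bf* and *Hist1h2ad*, 4 H2A and H2B genes under a shared peak (49.0 to 68.1). The curcumin library of this pair is the one that stood apart, and with the treatments exchanged every change takes the opposite sign. The ranks were taken among 11652 genes with vehicle but 9932 with curcumin. With an equal number of top peaks per list, 11 members fell and 11 rose by 10 points or more.

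**Figure D5:**
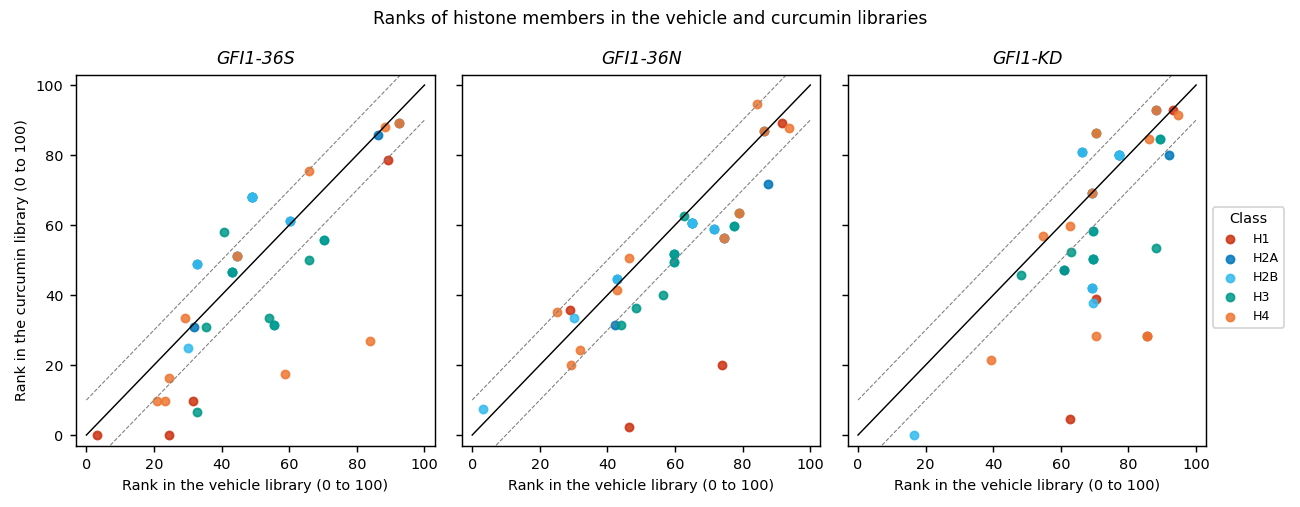
Rank of the strongest promoter peak with vehicle (x axis, 0 to 100) and with curcumin (y axis, 0 to 100) for the members marked in either library (points, coloured by histone class), in each genotype. The solid line marks equal ranks and the dashed lines a difference of 10 points. In *GFI1-36N*, 18 members lie below the lower dashed line and 2 reach the upper one, and members under a shared peak overlie each other.

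Other genes of the histone pathway were marked in every library in most cases. Of 20 factors known to act in the transcription or processing of histone mRNA, 17 had a promoter peak in every library and 3 lay in stretches with absent numbers. *Npat*, the coactivator of the clusters, ranked between 63.9 and 82.7, and *Slbp*, which encodes the stem-loop binding protein, between 75.2 and 95.2. With curcumin, the rank of 1 factor fell (5.88%, against 11.0% of all genes) and that of 3 rose (17.6%, against 19.5%) by 10 points or more in *GFI1-36N*, and the median change of the list was 0.55. In *GFI1-KD*, 3 fell (17.6%, against 20.7% of all genes) and 1 rose (5.88%, against 9.38%). The median change there was −4.13, with −4.57 for the histone members and −2.37 for all genes. In *GFI1-36S*, 5 fell (29.4%, against 41.6% of all genes) and 3 rose (17.6%, against 14.7%). The median change there was −0.11, and −6.73 for all genes.

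Of 37 genes of DNA replication and S phase, 36 had a peak in every library. Their median change with curcumin was 12.2 points in *GFI1-36S* (23 rose and 3 fell by 10 points or more), 3.41 in *GFI1-36N* (10 rose and 2 fell) and −1.30 in *GFI1-KD* (2 rose and 7 fell). For all genes with a peak in the pair it was −6.73, 1.98 and −2.37 in the same order. The *GFI1-36S* values rest on the curcumin library that stood apart, and take the opposite sign with the treatments exchanged. Rises made up 63.9%, 27.8% and 5.56% of the 36 genes, against 14.7%, 19.5% and 9.38% of all genes with a peak in the pair. Falls made up 8.33%, 5.56% and 19.4%, against 41.6%, 11.0% and 20.7%. In *GFI1-36N*, the helicase genes *Mcm3* and *Mcm6* went from 67.8 to 85.1 and from 66.0 to 80.6. The 2 that fell by 10 points or more there were *E2f2* (76.1 to 47.4) and *Orc1* (79.3 to 59.0). The histone members had a median change of −7.82 in that genotype. No test of the difference between the lists was possible with 1 library per group.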

How the data were processed

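H3K9ac ChIP-seq was analysed in 6 libraries, 1 for each genotype and treatment. The input and rabbit IgG samples were not used here. Per the study's methods and the labels, the authors used Trim Galore for adapters, BWA-MEM for mapping to mm10 and MACS2 for peak calling by library, and then applied the ENCODE black list. Of the deposited values, fold enrichment is a ratio over the background around the peak. The authors' caller also wrote a −log10 p, a −log10 q and an integer score for each peak. Multiple mapping, duplicates and the caller's thresholds are not given in the sources used here.

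Genes and TSSs came from GENCODE M21, without mitochondrial genes, and sequences from RefSeq GRCm38.p6. The computations were run in Python 3.11.15 (pandas 2.3.3, numpy 2.4.6, scipy 1.17.1). A promoter reached 1 kb to either side of every TSS of its gene. Absent peak numbers were counted between the listed peaks on either side of a promoter. Fragments at summits were recovered from fold and p, within 0.002 on the −log10 p scale for 98.7% to 99.9% of peaks. The lists carry no read totals, and 1 library per group allows no test. The steps were tested on simulated data.

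Members named are the highest and lowest of each class by mean rank, those with a peak in 0 to 5 libraries, the 3 largest rises and falls per genotype, and the *Hist2*, *Hist3*, *Hist4* and testis genes. Others were named after their values were seen. The members and lists were chosen with earlier results of these data known. Of 14 alternatives, the RefSeq start was chosen after seeing the data.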

Additional observations from a re-analysis of the deposited data

Results flagged for a closer look

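Some members changed by 10 points or more with curcumin in opposite directions in different genotypes. With 1 library per group the difference between genotypes was not tested. *Hist1h2ac* and *Hist1h2bc*, under a shared peak, changed by 14.7 in *GFI1-KD* and −12.4 in *GFI1-36N*. *Hist1h2ah* and *Hist1h2bk*, also a head-to-head pair, changed by 16.2 in *GFI1-36S* and −27 in *GFI1-KD*. *Hist1h3g* changed by 17.1 in *GFI1-36S* and −34.7 in *GFI1-KD*. *Hist1h3a* changed by 15.9 in *GFI1-KD* but −16 in *GFI1-36S* and −15.5 in *GFI1-36N*, and its neighbour *Hist1h4a* by 15.9 in *GFI1-KD* and −15.5 in *GFI1-36N*. *Hist1h4j* changed by 10 in *GFI1-36N* and by −13.4 in *GFI1-36S* and −18 in *GFI1-KD*.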

How the results depend on the processing

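The promoter state of 24 members is undetermined, neighbouring members share peaks, and 1 library per group leaves every change without a replicate check. Of 48 counts of members with a peak, 47 were within 1.5 times the main count, and so were all 28 counts of ranks moved by 10 points or more in either direction. By direction, falls in *GFI1-KD* went from 20 to 12 with 3 kb, and rises in *GFI1-36S* from 7 to 11 with the top peaks. Of 65 such changes of single members, 45 kept direction and size with 3 kb, as did 47 of 61 with the summit inside the window. With the summit inside the window, 26 members had a peak in *GFI1-KD* vehicle, 15 had a peak in 1 library of the *GFI1-KD* pair and 1 in *GFI1-36N*, and the median change in *GFI1-36N* was −2.55. It was −4.20 with a window of 3 kb and 0 over all 67 members. Members with a peak in 1 library of the pair numbered 1 in *GFI1-36S* and 1 in *GFI1-36N* with a −log10 q of at least 5, 1, 1 and 2 (*GFI1-KD*) with the 20354 peaks of lowest p per list, 2 in *GFI1-KD* with 500 bp, 0 in *GFI1-36S* with 3 kb, and 1 in *GFI1-36S* without the testis members or at RefSeq starts. In *GFI1-36S* the median was 0.49 with the top peaks, 0.88 with 3 kb and 2.12 with the treatments exchanged. The median width in *GFI1-36S* curcumin was 1828 bp when summed over all peaks in the window. Of the named members, the direction turned with 3 kb for *Hist1h1d* (4.30), *Hist1h1t* (4.33) and *Hist1h1a* (−15.3) in *GFI1-36N*. With the summit inside the window it turned for *Hist1h2bf* (−33.4) and *Hist1h4d* (27.1) in *GFI1-36S*, *Hist1h1t* in *GFI1-36N* (2.38) and *GFI1-KD* (4.73), and *Hist1h4f* in *GFI1-KD* (28.6). It turned for *Hist1h1a* in *GFI1-36N* with ranks by −log10 p (−1.27) and for *Hist1h1d* in *GFI1-36N* at its RefSeq start (4.19). With the *GFI1-36S* treatments exchanged, *Hist1h4d* (57), *Hist1h4c* (41.4), *Hist1h3e* (26.1) and *Hist1h2ae*, *Hist1h2bg* and *Hist1h2bf* (−19.2) turn by construction. The cause of the other changes was not tested. No paired analysis was possible because each group has 1 library.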

Other observations

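Of 15 replication-independent histone genes, which supply variant histones outside S phase and carry ordinary mRNAs with a poly(A) tail, 8 or 9 had a promoter peak in each library (53.3% to 60%, against 45.3% to 55.3% of all genes), and 1 lay in a stretch with absent numbers. Their median rank was between 63.8 and 83.4, above that of the replication-dependent members in every library but without a test. *H3f3a*, a gene for the H3 variant H3.3, ranked between 94.6 and 99.5. *H1f0*, a linker histone gene of cells that leave the cycle, ranked 21.5 in *GFI1-36S* vehicle and 98.0 in *GFI1-36S* curcumin, the library that stood apart. In *GFI1-36N*, 5 of 9 rose (55.6%, against 19.5% of all genes) and 0 fell (11.0% of all genes) by 10 points or more with curcumin, with a median change of 10.9.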
